A study of Mus musculus with 3 samples.

Results

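The 9 genes described here encode receptors for the constant (Fc) part of antibodies, or parts and relatives of such receptors. They were taken by name from the 32285 genes counted in single-cell RNA-seq of live CD45+ cells, the leukocytes, sorted from whole mouse aortas with their adventitia. The list holds the IgG receptor genes Fcgr1, Fcgr3, Fcgr4 and Fcgr2b, the shared signalling chain Fcer1g, the IgE receptor genes Fcer1a and Fcer2a, the IgM receptor gene Fcmr, and Fcrl1, an Fc receptor-like gene of B cells. Every one of the 9 had UMIs (unique molecular identifiers, 1 per captured transcript) in each of the 3 libraries. All mice were labelled Apoe-/- on C57BL/6J, a genotype prone to atherosclerosis. One library came from control mice, one (HHcy) from mice that drank water with 1.8 g/L homocysteine over 4 weeks, and one (WD) from mice on a western diet for the same time. Age, sex, the number of mice per library and any pooling are not given in the labels used here. With 1 library per group there is no replicate, and no difference between libraries below has a test. Intervals, given in parentheses, are 95% intervals for counting error only. Where 3 values stand together, their order is control, HHcy, WD.

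Fc receptors link antibodies to the cells that act on them. Fcgr1, Fcgr3 and Fcgr4 encode activating IgG receptors, which reach the surface and signal through the FcR gamma chain made by Fcer1g, a small adaptor with an activation motif (ITAM) that recruits the kinase Syk. Fcgr2b encodes the inhibitory IgG receptor, whose inhibitory motif (ITIM) recruits the phosphatase made by Inpp5d, and it acts as a brake on macrophages and on the B cell receptor. Fcer1a encodes the IgE-binding chain of the high-affinity IgE receptor of mast cells and basophils, Fcer2a encodes CD23, the low-affinity IgE receptor of B cells, and Fcmr encodes the receptor for IgM.

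Of the IgG receptor genes, 3 lie in 1 stretch of chromosome 1 (GRCm38, GENCODE M21). These are Fcgr2b on the minus strand at chr1:170958617-170976547, Fcgr4 on the plus strand at chr1:171018920-171029761 and Fcgr3 on the minus strand at chr1:171051174-171064935. The shared chain gene Fcer1g lies at chr1:171229572-171234365, and Fcer1a and Fcmr are on the same chromosome at chr1:173221284-173227214 and chr1:130865669-130880791. Fcgr1 at chr3:96282909-96293969, Fcrl1 at chr3:87376387-87402934 and Fcer2a at chr8:3681737-3694175 lie elsewhere. All 9 are protein-coding genes. Mir6546 overlaps Fcgr3, Gm26110 overlaps Fcgr4, and Gm38204 overlaps Fcgr2b on the opposite strand. Fcgr2b and Fcgr3 are close copies, and their longest identical coding stretch, 129 bases, is shown because a read within it cannot be assigned to one of the genes. It spans coding bases 278 to 406 of Fcgr2b and 263 to 391 of Fcgr3.
Fcgr2b and Fcgr3, shared coding run: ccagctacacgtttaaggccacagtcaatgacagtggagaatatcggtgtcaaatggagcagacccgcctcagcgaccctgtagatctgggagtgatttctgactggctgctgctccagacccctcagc
The libraries were made with a 3' kit, so reads come mostly from transcript ends. Of the 50-base words in the last 500 bases of the coding transcripts, 2.25% of those of Fcgr2b were also found in Fcgr3. For Fcer2a 4.03% were found in other genes, and for the other 7 members none was. The longest identical coding run of Fcgr4 was 14 bases with Fcgr3 and 13 with Fcgr2b.

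The 100 bases before the RefSeq start (GRCm38.p6) are shown for the 3 activating receptor genes, whose UMIs lay mostly in myeloid cells, and for the B cell gene Fcrl1. Capitals mark GAGGAA or its reverse complement TTCCTC, the core bound by PU.1, an ETS factor of myeloid and B cells, and the longer form GAGGAAGT or ACTTCCTC that contains it. Sequences read 5′ to 3′ on the strand of the gene.
Fcgr1 (chr3:96293970-96294069, minus strand): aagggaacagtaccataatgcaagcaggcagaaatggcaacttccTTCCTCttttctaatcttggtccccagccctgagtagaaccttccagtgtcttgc
Fcgr3 (chr1:171059404-171059503, minus strand): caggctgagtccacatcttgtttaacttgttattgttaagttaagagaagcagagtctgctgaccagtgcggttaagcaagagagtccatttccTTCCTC
Fcgr4 (chr1:171018826-171018925, plus strand): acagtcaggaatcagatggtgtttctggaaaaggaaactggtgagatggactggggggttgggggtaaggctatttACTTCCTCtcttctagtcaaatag
Fcrl1 (chr3:87376287-87376386, plus strand): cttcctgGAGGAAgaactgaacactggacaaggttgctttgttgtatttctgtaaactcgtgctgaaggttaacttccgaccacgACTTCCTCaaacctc
Searched on both strands over 300 bases, from 250 before to 50 after the start, GAGGAA occurred in 28.3% of 32851 RefSeq promoters and GAGGAAGT in 1052 of them. Fcgr1, Fcgr3, Fcgr4, Fcer1a, Fcmr and Fcrl1 held the shorter form, and Fcgr4 and Fcrl1 the longer one. Neither form was in the windows of Fcgr2b, Fcer1g or Fcer2a. A match is a string of letters, and binding was not measured.

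The libraries held 7512, 9753 and 8557 barcodes with 66789257, 105180370.0 and 93164076 UMIs, and pairs of libraries shared 20 to 24 barcodes. Apoe, the gene named in the genotype, was at 16.3, 374 and 19.3 CPM over all barcodes (CPM, the UMIs of a gene per 1000000 UMIs of the cells named). The HHcy library therefore goes against its genotype label, is called the library labelled HHcy, and every direction given for it carries that limit. Barcodes with genes of more than 1 lineage were left out as doublets. They were 11.6, 22.2 and 21% of the barcodes that passed the filters. The 9 genes and other immunoglobulin receptors were kept out of the clustering and of the markers that name cell classes. Macrophage/monocyte-like cells numbered 2016, 1263 and 2772, B cell-like cells 2205, 3650 and 1208, conventional dendritic cell-like cells 478, 290 and 457, and neutrophil-like cells 179, 390 and 255.

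By the cells that held them, the genes fell into a myeloid group, a B cell group and a mast cell gene, with Fcgr2b in the first and second. Macrophage/monocyte-like cells held 85.1 to 89.3% of the Fcgr1 UMIs of all cells used, 79.4 to 89.8% of those of Fcgr3 and 80.3 to 90.9% of those of Fcgr4, over the 3 libraries. B cell-like cells held 92.2, 92.7 and 85.7% of the Fcer2a UMIs, 94, 94.7 and 93.3% of those of Fcmr and 85.9, 91.8 and 79.9% of those of Fcrl1. Fcer1a lay almost wholly in mast cell-like cells, with 97.2, 94.9 and 89.1% of its UMIs. Fcgr2b was split, with 57.1, 49.6 and 77.1% of its UMIs in macrophage/monocyte-like cells and 21.5, 32.6 and 7.24% in B cell-like cells. These shares move with the number of cells of each class, so levels are given below as CPM within a class.

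**Figure D1:**
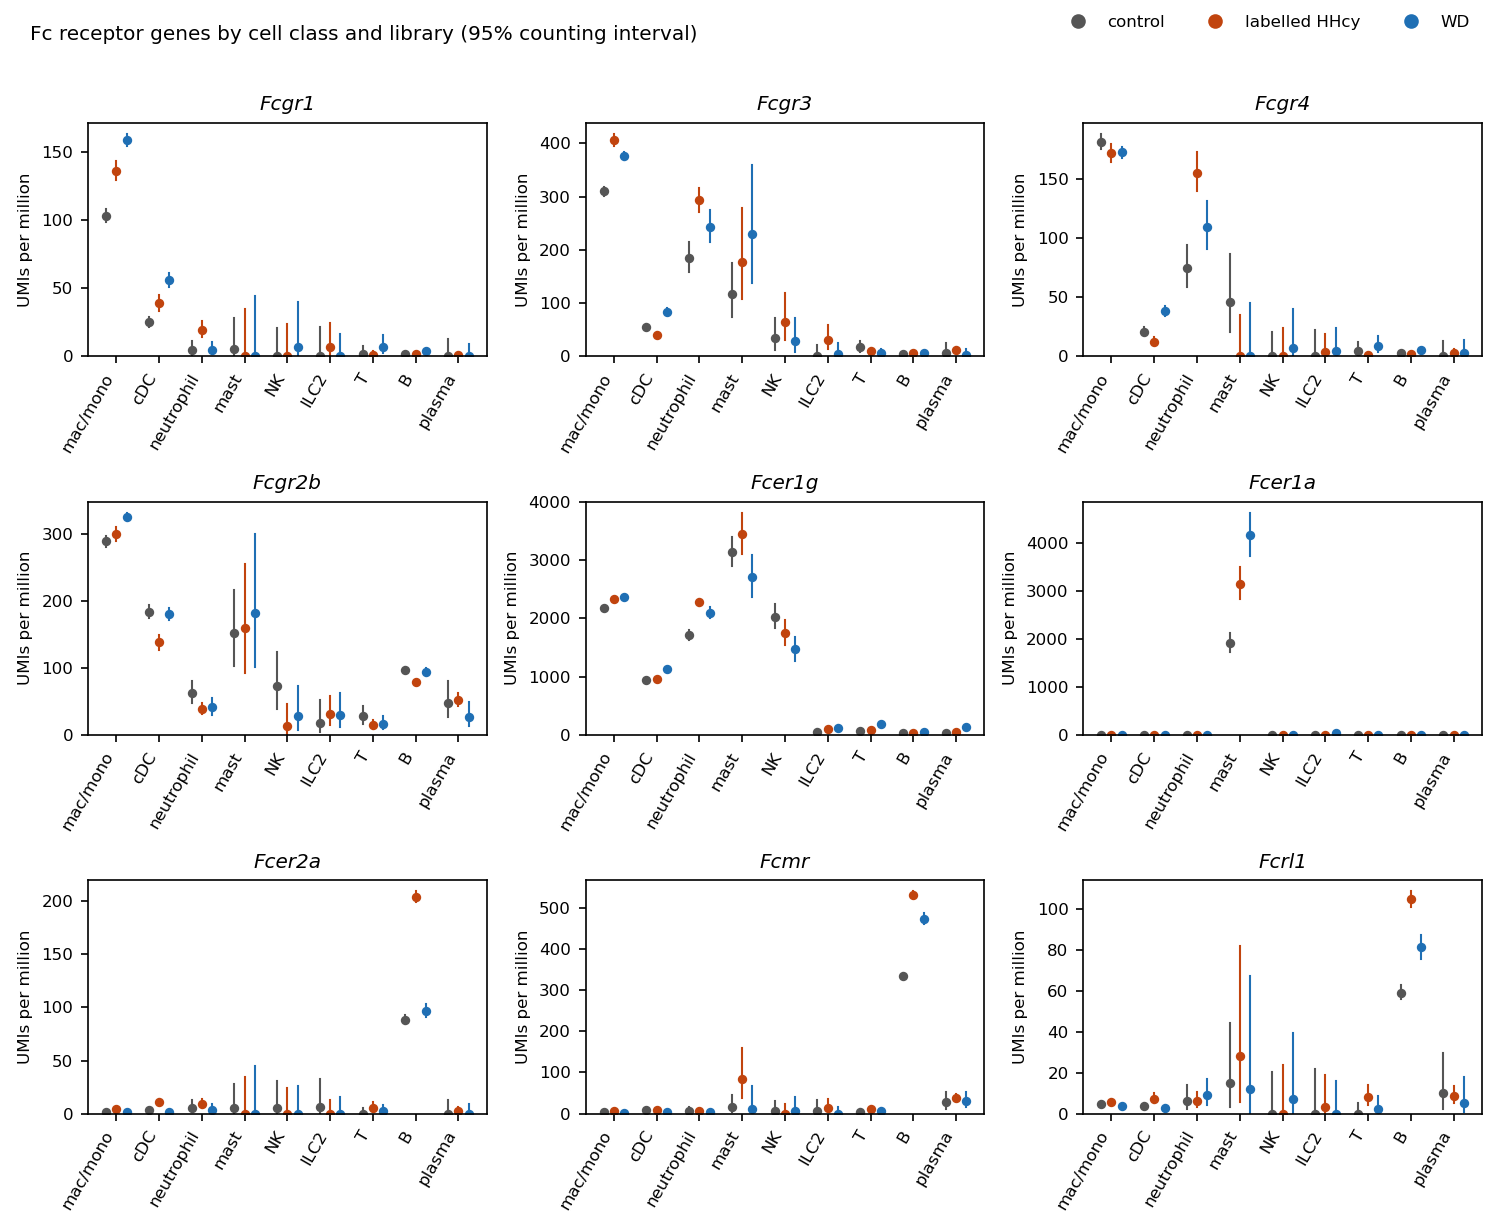
Level of each Fc receptor gene by cell class, in CPM of the class, with 1 point per library and its 95% counting interval. Fcgr1 is high in macrophage/monocyte-like cells, Fcgr3 and Fcgr4 in myeloid classes, Fcer1g in these and in mast and NK cell-like cells, Fcer1a in mast cell-like cells, and Fcer2a, Fcmr and Fcrl1 in B cell-like cells.

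Fcgr1, the high-affinity IgG receptor gene, was at 103 (98.5 to 108), 136 (129.7 to 143) and 159 (154 to 163) CPM in macrophage/monocyte-like cells. Conventional dendritic cell-like cells held 24.8, 38.9 and 55.6 CPM, and neutrophil-like cells 4.26, 19.4 and 4.6 CPM. These 3 classes kept that order in every library, and neighbouring classes did not overlap in their intervals. The neutrophil values rest on 4, 44 and 5 UMIs. B cell-like cells, which should lack the gene, held 1.52, 1.28 and 3.86 CPM, and T cell-like cells 1.38, 0.627 and 7.05 CPM. The WD neutrophil value thus lay within this background. The control value was higher than it, but 4 UMIs are too few to set it apart. Fcgr3, a low-affinity activating receptor gene, was at 310.0, 406 and 376 CPM in macrophage/monocyte-like cells and at 185 (159 to 215), 293 (271 to 316) and 243 (214 to 274) CPM in neutrophil-like cells. In mast cell-like cells it was at 116 (73.7 to 174), 178 (107 to 278) and 229.6 (138 to 359) CPM, on 23, 19 and 19 UMIs, and these intervals overlapped those of the neutrophils. Fcgr4, an activating receptor gene of monocytes and neutrophils, was at 181, 172 and 172 CPM in macrophage/monocyte-like cells. Neutrophil-like cells held 74.5, 155 and 109 CPM of Fcgr4, and dendritic cell-like cells 20.8, 12.4 and 37.9 CPM.

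Fcer1g was found in nearly all myeloid cells, with at least 1 UMI in 95, 95.2 and 97.3% of macrophage/monocyte-like cells and in 94.4, 99.5 and 96.5% of neutrophil-like cells. Mast cell-like cells, where the gamma chain also serves the IgE receptor, held 3138, 3446 and 2707 CPM. Macrophage/monocyte-like cells followed with 2175, 2337 and 2365 CPM. The gamma chain serves NK cell receptors as well, and NK cell-like cells held 2033 (1830.1 to 2252), 1745 (1543 to 1965) and 1470.0 (1277 to 1685) CPM of Fcer1g in 23, 16 and 16 cells. T cell-like cells held 70.3, 84.7 and 189 CPM of Fcer1g. Markers of NK cells summed to 2689.9, 2015 and 3177 CPM in those T cell-like cells, with 10 to 11 of 12 detected and Klra8 at 0 in all 3 libraries, and their part in the Fcer1g level was not tested.

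Fcgr2b, the inhibitory receptor gene, was at 289, 299 and 325 CPM in macrophage/monocyte-like cells. Dendritic cell-like cells held 184, 138 and 179.7 CPM, and neutrophil-like cells 61.7, 38.9 and 41.4 CPM. B cell-like cells were at 96.2 (91.9 to 101), 78.4 (75.2 to 81.6) and 93.9 (87.9 to 100.2) CPM of Fcgr2b. T cell-like cells, taken here as the comparison class, were at 27.6 (16.8 to 42.6), 14.4 (9.15 to 21.6) and 16.5 (8.99 to 27.6) CPM. B cell-like cells lay above that level in every library, and whether T cell-like cells express the gene was not tested. A UMI of Fcgr2b was found in 46, 39.4 and 43.3% of B cell-like cells at median depths of 7550.0, 6430.0 and 6675.5 UMIs, and in 11.8, 8.42 and 9.03% of T cell-like cells at 3908, 5973 and 4757.5 UMIs. With each cell thinned to 1000 UMIs these shares became 9.37, 8.09 and 8.87% for B and 4.65, 2.01 and 2.08% for T cell-like cells, and the control intervals of the thinned shares overlapped.

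Monocyte and macrophage sub-clusters were named from their markers as classical monocyte-like (led by Ly6c2 and Chil3), non-classical monocyte-like (Treml4, Ace), resident macrophage-like (Lyve1, Folr2, Cd163) and foamy macrophage-like, of which one was led by Trem2 and Cd72 and another by Gpnmb, Spp1 and Fabp5. A cycling sub-cluster and 4 unnamed ones, among them one with Prg4 and Alox15 and one with Mmp13, made up the rest. Fcgr4 was at 427 (407 to 449), 445 (416 to 477) and 434 (411 to 458) CPM in non-classical monocyte-like cells. In resident macrophage-like cells it was at 50.6 (42 to 60.4), 38.9 (31.1 to 48.2) and 78.6 (70.0 to 87.9) CPM. The lowest non-classical value lay far above the highest resident one. Classical monocyte-like cells held 100.4, 121 and 89.7 CPM of Fcgr4, and the Mmp13 sub-cluster, of 50, 51 and 27 cells, held 289, 276 and 304 CPM.

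Fcgr3 had the opposite order in these 2 sub-clusters. It was at 560.2, 703 and 670.4 CPM in resident macrophage-like cells, its highest level of all sub-clusters in each library. Non-classical monocyte-like cells held 118, 118 and 96.8 CPM, the lowest level among the 5 named sub-clusters outside the cycling one. Classical monocyte-like cells stood between, at 226, 247 and 214 CPM, as did the foamy-like cells led by Trem2 at 425, 561 and 459.7 CPM. Non-classical monocyte-like cells thus held more Fcgr4 and less Fcgr3 than resident macrophage-like cells in all 3 libraries, and the 2 genes lie 21413 bases apart on chromosome 1. Resident macrophage-like cells were not the lowest for Fcgr4, which was at 14.1, 3.39 and 50.4 CPM in the cycling sub-cluster. That sub-cluster had 48, 20 and 101 cells, with 12 Fcgr4 UMIs in the control and 100 in WD, and its value in the library labelled HHcy was near the floor. In WD the Fcgr4 interval of resident macrophage-like cells overlapped that of the Gpnmb foamy-like cells, at 79.4 (71.6 to 87.9) CPM. Across the 10 sub-clusters of a library the levels of Fcgr3 and Fcgr4 had Pearson correlations of -0.09, 0.10 and -0.35, given as a description of points that share a library and its depth. Fcgr2b and Fcgr1 had correlations of 0.66, 0.79 and 0.64 over the same sub-clusters.

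Fcgr2b was highest in resident macrophage-like cells, at 522, 576 and 596 CPM, and lowest among the same 5 in non-classical monocyte-like cells, at 138, 140.4 and 146 CPM. In foamy-like cells led by Gpnmb it was at 458, 401 and 376 CPM. Fcer1g was highest among these 5 in non-classical monocyte-like cells, at 3022, 3232 and 3451 CPM, and lowest in resident macrophage-like cells, at 1476, 1752 and 1748 CPM. Among these 5, Fcgr4 was highest where Fcer1g was highest, and Fcgr3 was highest where Fcer1g was lowest. Fcgr1 was highest in foamy-like cells led by Gpnmb in the control library and that labelled HHcy, and in those led by Trem2 in WD, with 175, 277 and 169 CPM in the former and 113, 165 and 221 CPM in the latter. Non-classical monocyte-like cells held 54.7, 52.2 and 55.1 CPM of Fcgr1. In the Prg4 and Alox15 group Fcgr1 was at 38.8, 40.3 and 46.8 CPM while Fcgr3 was at 478, 585 and 531 CPM, so a low Fcgr1 went with a high Fcgr3 there.

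**Figure D2:**
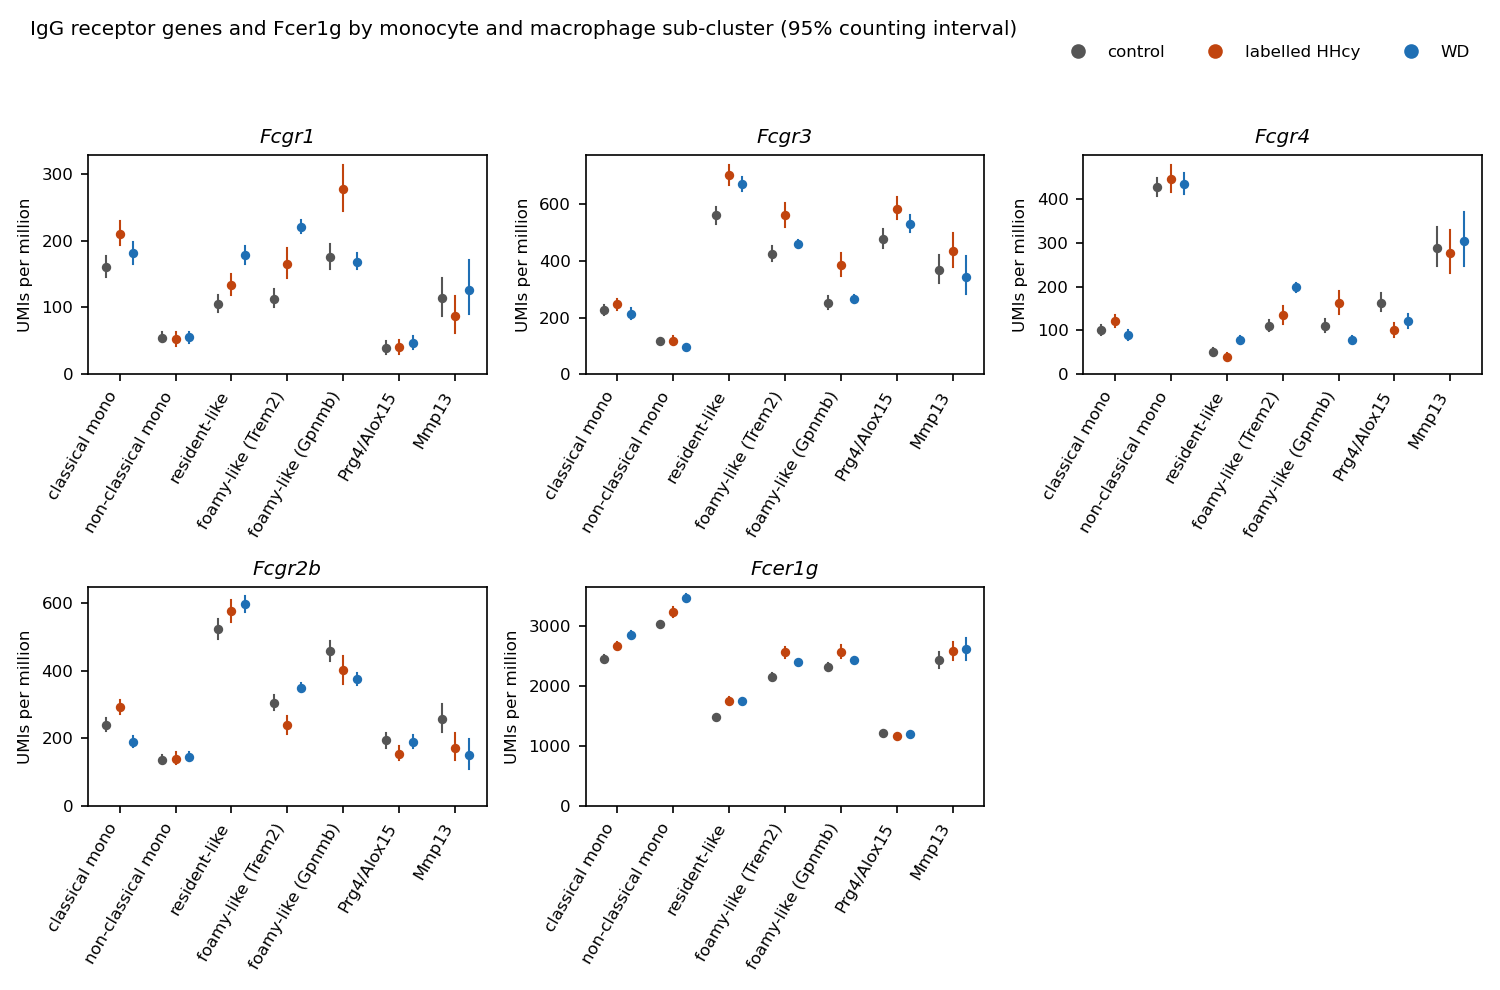
Levels of 4 IgG receptor genes and Fcer1g in 7 monocyte and macrophage sub-clusters, in CPM of the sub-cluster, 1 point per library with its 95% counting interval. Fcgr4 is highest in non-classical monocyte-like cells in all libraries, and Fcgr3 and Fcgr2b in resident macrophage-like cells.

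The number of UMIs of the 3 activating genes per UMI of Fcgr2b joins these patterns in 1 value. Since a 3' kit counts transcript ends, no correction for gene length was made. In all macrophage/monocyte-like cells the ratio was 2.06 (1.99 to 2.13), 2.38 (2.29 to 2.48) and 2.18 (2.12 to 2.23). Non-classical monocyte-like cells had 4.36, 4.39 and 4.03, and Fcgr4 made up 71.3, 72.3 and 74.1% of their activating UMIs. In resident macrophage-like cells the ratio was 1.37, 1.52 and 1.56, and the Fcgr4 share 7.06, 4.44 and 8.47%. The Gpnmb foamy-like cells stood at 1.17 (1.08 to 1.28), 2.05 (1.81 to 2.33) and 1.37 (1.28 to 1.45), and the Trem2 foamy-like cells at 2.13 (1.95 to 2.32), 3.61 (3.18 to 4.12) and 2.51 (2.41 to 2.62). In both foamy-like groups the library labelled HHcy lay above control and WD with no overlap of intervals, on 77 and 114 cells. Neutrophil-like cells had ratios of 4.28 (3.2 to 5.79), 12 (9.67 to 15.1) and 8.62 (6.32 to 12). Dendritic cell-like cells had 0.548 (0.501 to 0.599), 0.659 (0.58 to 0.747) and 0.985 (0.916 to 1.06), with 1 inside the interval in WD, and B cell-like cells had 0.0867, 0.107 and 0.163.

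**Figure D3:**
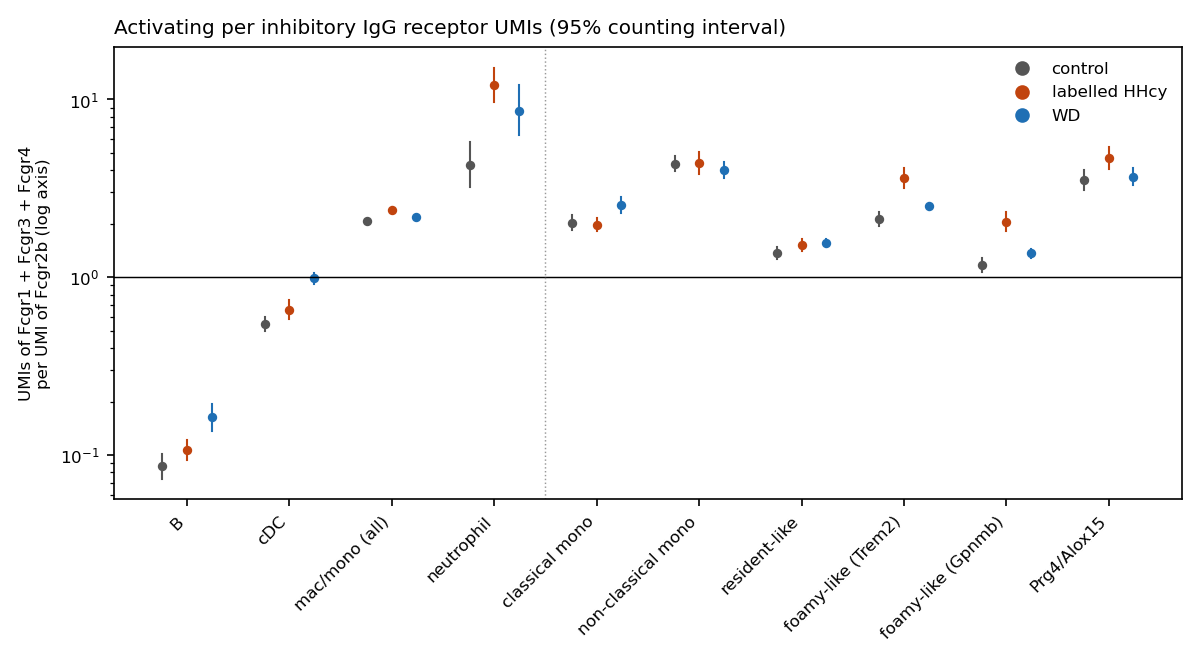
UMIs of Fcgr1, Fcgr3 and Fcgr4 together per UMI of Fcgr2b (log axis), for cell classes and monocyte and macrophage sub-clusters, 1 point per library with its 95% counting interval. Non-classical monocyte-like cells lie near 4 in every library and resident macrophage-like cells between 1.37 and 1.56.

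Between libraries, a gene was called past the fold where its CPM was at least 1.5 times higher or lower than in the control, among genes with at least 100 UMIs in the pair of libraries. Both comparisons share the control library, so they are not independent. In macrophage/monocyte-like cells 7 members had enough UMIs, and in the library labelled HHcy 0 of them were past the fold, where 2.21% of all such genes were higher and 2.62% lower. Fcgr1 stood at 1.32 times (1.23 to 1.41) the control and Fcgr3 at 1.31 times (1.26 to 1.36), while Fcgr4, Fcgr2b and Fcer1g were at 0.947, 1.04 and 1.07 times. In WD 1 member, Fcgr1, was past the fold upward at 1.54 times (1.46 to 1.62), and 1 downward, the B cell gene Fcmr, at 0.62 times (0.439 to 0.875), against 2.88% of all genes higher and 2.88% lower. Fcmr stood at 3.89, 5.52 and 2.41 CPM in these cells, and the summed B cell markers at 132, 187 and 92.3 CPM, with 12 of 12 detected in each library. Fcmr and the B cell markers were both lowest in WD, and the part of the markers in the Fcmr value was not tested. Of the sub-clusters, Fcmr was highest in an unnamed one of 106, 91 and 122 cells, at 88.4, 62.7 and 10.2 CPM. The median depth there was 1180, 1032 and 1223.5 UMIs a cell, and the part of that sub-cluster in the class ratio was not tested. Fcmr was no longer called with doublets kept, with a higher limit on mitochondrial UMIs or with at least 500 genes a cell. A sum over the cells of a class does not by itself tell fewer cells that express a gene from less RNA per cell.

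Between control and WD, Fcgr1 was not equally far apart in every sub-cluster, a difference that was not tested. It was at 113 (100.4 to 127), 165 (143 to 189) and 221 (211 to 231) CPM in Trem2 foamy-like cells and at 105 (92.7 to 119), 134 (119 to 150.3) and 179 (166 to 192) CPM in resident macrophage-like cells, with WD the highest in both. In non-classical monocyte-like and in Gpnmb foamy-like cells the control and WD intervals overlapped. The Trem2 foamy-like sub-cluster made up 11.1, 9.03 and 26.8% of macrophage/monocyte-like cells. With the sub-clusters weighted as in the control, the log2 ratio of Fcgr1 in WD was 0.41 in place of 0.62, and with cells thinned to 1000 UMIs it was 0.56, both below the fold. Fcgr4 in the same Trem2 foamy-like cells was at 111, 135 and 198 CPM, while over the whole class it was 0.95 times the control in WD. At a sub-cluster resolution of 1 the macrophages were split otherwise. A group of 98, 58 and 462 cells, with Ifit3 and H2-Ab1 among its leading genes, was named interferon macrophage-like. The group with Trem2 and Cd72 had 119, 51 and 270 cells and was named foamy macrophage-like. How far these groups make up the Trem2 foamy-like cells was not examined. In Gpnmb foamy-like cells Fcgr1 was at 175 (158 to 194), 277 (245 to 313) and 169 (157 to 181) CPM and Fcgr3 at 252, 384 and 266 CPM, with the library labelled HHcy the highest for each.

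Apoe UMIs in the library labelled HHcy were unevenly spread over its macrophages, so the members were read with and without the cells that held them. At least 10 Apoe UMIs were found in 188 of its 1263 macrophage/monocyte-like cells, against 1 in the control and 2 in WD. Those cells held 597 CPM of Fcgr3 against 369 CPM in the rest of the class, and 97.4 against 144 CPM of Fcgr1. They also held 117 against 182 CPM of Fcgr4 and 1786 against 2443 CPM of Fcer1g. For Fcgr2b the values were 313 and 297 CPM, with overlapping intervals. Fcgr3 was thus higher in the cells with Apoe, and Fcgr1, Fcgr4 and Fcer1g lower. The rest of the class includes monocyte-like cells, and the 2 sets were not matched by sub-cluster. In that library resident macrophage-like cells also held more Fcgr3 than non-classical monocyte-like cells, 703 against 118 CPM. They held less Fcgr4 (38.9 against 445) and Fcer1g (1752 against 3232), but more Fcgr1 (134 against 52.2). The part of the sub-cluster mix was not tested. Without the cells of 10 or more Apoe UMIs the log2 ratio of Fcgr3 to the control went from 0.39 to 0.25, and that of Fcgr1 from 0.40 to 0.48.

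**Figure D4:**
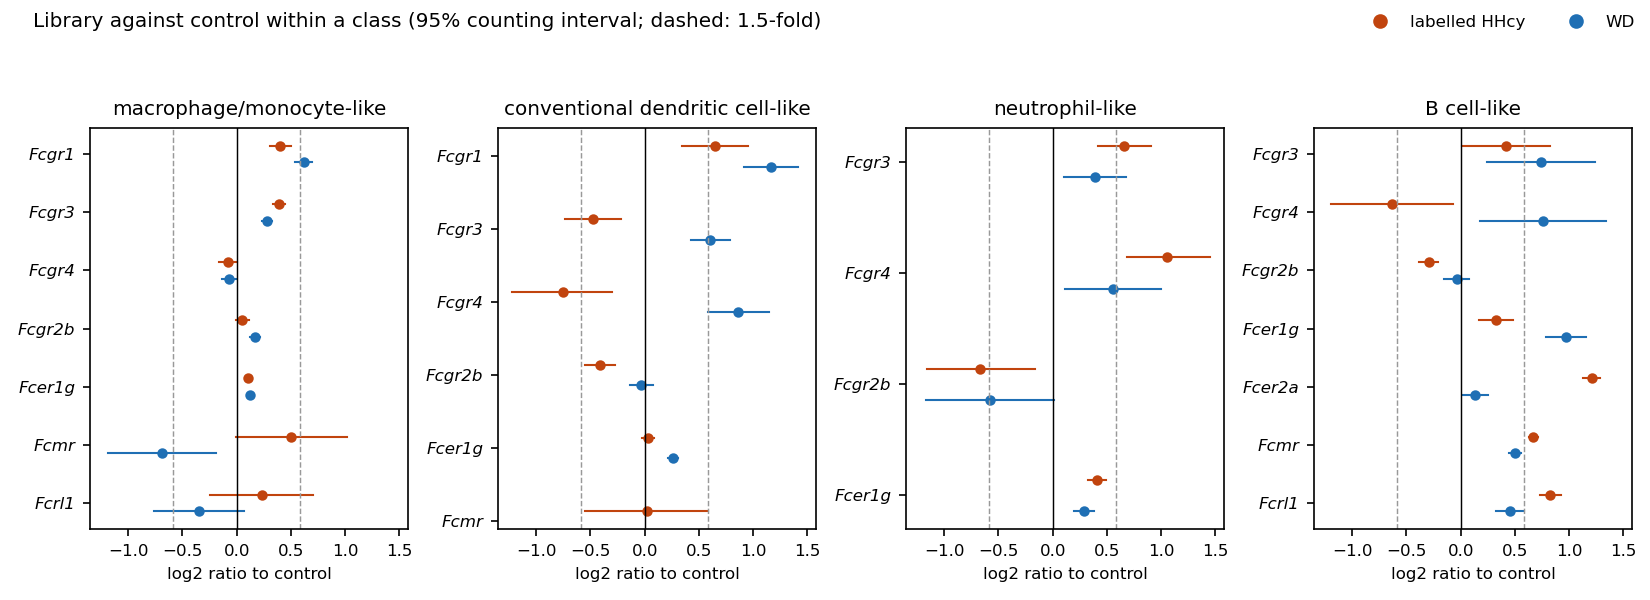
Log2 ratio of the members to the control by class, for the library labelled HHcy and WD, with 95% counting intervals; dashed lines mark 1.5-fold in each direction. Fcer2a in B cell-like cells of the library labelled HHcy is at 1.21 and Fcgr1 in dendritic cell-like cells of WD at 1.16.

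Conventional dendritic cell-like cells held less of the activating receptor genes than macrophages, and their ratios differed in direction between members. In the library labelled HHcy, Fcgr1 was past the fold upward at 1.57 times (1.27 to 1.93) and Fcgr4 downward at 0.593 times (0.429 to 0.81), which are 1 member of 6 in each direction where 3.43% of all genes were higher and 2.32% lower. Fcgr3 and Fcgr2b were at 0.719 and 0.751 times, but with doublets kept the log2 ratio of Fcgr3 turned from -0.48 to 0.21. In WD 3 of 5 members were past the fold upward, Fcgr1 at 2.24 times (1.89 to 2.67), Fcgr4 at 1.82 times (1.5 to 2.22) and Fcgr3 at 1.52 times (1.34 to 1.72), against 4.13% of all genes, and 0 of 5 downward, against 3.21%. Macrophage markers in these dendritic cell-like cells summed to 4735, 4679 and 6710.1 CPM, with 21 of 21 detected in each library, so WD was highest for these markers as for the 3 genes, and their part in the ratios was not tested. With cells thinned to 1000 UMIs the WD log2 ratio of Fcgr3 was 0.23 in place of 0.60, below the fold.

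Among the dendritic cell clusters, the one led by Cd209a held 44.6, 72.3 and 69.1 CPM of Fcgr1, and the one with Xcr1 and Clec9a 7.86, 13 and 38.4 CPM, on 18, 20 and 59 UMIs. The cluster with Ccr7 and Fscn1 held 14.8, 7.66 and 46.1 CPM, on 15, 3 and 73 UMIs. In the latter pair of clusters 76.3 to 100.0% of the Fcgr1 UMIs of a library lay in 10 cells, 76.3% and 90.4% in WD, where 1 cell of the Ccr7 and Fscn1 cluster had 18. WD had the highest level of Fcgr1 in both, on so few cells, and was close to the library labelled HHcy in the first. Fcgr2b was at 235, 172 and 224 CPM in the Cd209a cluster and at 153, 116 and 143 CPM in the Xcr1 and Clec9a cluster. Fcer1g was at 1524, 1619.8 and 1541 CPM and 444, 395 and 587 CPM in the same clusters, higher in the Cd209a cluster in each library.

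Neutrophil-like cells of the library labelled HHcy held more Fcgr4 than the control. Fcgr4 was at 2.08 times (1.6 to 2.73) the control and Fcgr3 at 1.58 times (1.34 to 1.88), while Fcgr2b was at 0.629 times (0.447 to 0.892). These are 2 members higher and 1 lower of 4, in a comparison where 8.71% of all genes were higher and 17.1% lower and the median log2 ratio of all genes was -0.11. In WD 0 of 4 were past the fold, with Fcgr4 at 1.47 times (1.08 to 2.0) and Fcgr2b at 0.67 times (0.444 to 1.01), against 9.18% of genes higher and 7.04% lower. Of the 3 neutrophil clusters, the one with most cells held 91.3, 179.9 and 114 CPM of Fcgr4 and 257, 319 and 296 CPM of Fcgr3. The smallest, with Camp and Fcnb, genes of immature neutrophils, among its leading genes, had 28, 9 and 14 of the 179, 390 and 255 neutrophil-like cells. It held 70.5, 64.1 and 107 CPM of Fcgr4, on 16, 6 and 12 UMIs, of which 1 cell of WD had 8, and the intervals of the 3 libraries overlapped. Its Fcgr2b was at 123, 128 and 116 CPM. Fcgr2b there was above that of the first cluster, at 39.5, 32.2 and 28.2 CPM, in each library. The third cluster, of 53, 60 and 30 cells, also had Camp, with Ngp and Ltf, among its leading genes. Its Fcgr2b was at 45.6, 44.6 and 51.2 CPM. Within each of the 3 clusters the control interval of Fcgr2b overlapped that of the library labelled HHcy. With the clusters weighted as in the control, the log2 ratio in the library labelled HHcy was 0.71 for Fcgr4, still past the fold. Fcgr2b was no longer called lower with that weighting, with median-ratio scaling or with thinned cells. The log2 ratio of Fcgr3 was 0.41 with that weighting, below the fold, and with thinned cells it was 0.26. Macrophage markers summed to 6544, 7775 and 7092 CPM in neutrophil-like cells, with 21 of 21 detected, and their part was not tested.

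Fcer1a marked the mast cell-like cells, which numbered 34, 24 and 11. Its level was 1915 (1727 to 2118), 3146 (2819 to 3501) and 4157 (3729.5 to 4621) CPM, on 379, 336 and 344 UMIs. It was found in 33, 24 and 11 of these cells, with medians of 9.5, 9 and 25 UMIs a cell and at most 33, 43 and 75. The 3 levels did not overlap in counting error, with WD the highest on the fewest cells, and the spread between cells is not in these intervals. Ms4a2, the beta chain of the same receptor, was at 328, 356 and 435 CPM with overlapping intervals. Mcpt4, a protease gene of connective tissue mast cells, was at 34694, 46952 and 54951 CPM, in the same order of libraries as Fcer1a. The mast cell markers, Mcpt4 among them, summed to 104288, 142549 and 181157 CPM in these cells. Macrophage markers summed to 4245, 1339 and 1704 CPM, with 21, 11 and 18 of 21 detected, and their part in the Fcer1a levels was not tested.

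Outside the mast cell-like cells, 3 single cells had 5 or more Fcer1a UMIs. One of the library labelled HHcy, with 13 Fcer1a UMIs, also held 225 UMIs of Mcpt8, a basophil protease gene, 16 of Cpa3 and 8 of Ms4a2. One of WD, with 24 Fcer1a UMIs, held 100 of Mcpt8, 63 of Cpa3 and 20 of Ms4a2. Both were grouped with the macrophage/monocyte-like cells and had 0 UMIs of the mast cell protease genes Mcpt4 and Cma1. The third, an ILC2-like cell of WD with 7 Fcer1a UMIs, had 0 UMIs of each of these 5 other genes. Basophils formed no class of their own here.

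The B cell receptor genes followed the B cell sub-clusters. Fcer2a was at 246, 286 and 242 CPM and at 334, 353 and 278 CPM in the naive follicular-like sub-clusters led by Satb1 and by Cr2. In the B1-like sub-clusters led by Zcwpw1 and by S100a4 it was at 7.14 (5.27 to 9.47), 17.9 (14.1 to 22.5) and 3.9 (1.87 to 7.17) CPM and at 20.3 (16.7 to 24.5), 45.9 (39.3 to 53.3) and 21.2 (15.8 to 27.8) CPM. The gap between follicular-like and B1-like cells held in each library, and within both of these B1-like sub-clusters the library labelled HHcy was the highest. Fcrl1 had a like order, with 128, 133 and 164 and with 181, 163 and 191 CPM in follicular-like cells and 13.2, 27.1 and 18.7 CPM in the Zcwpw1 sub-cluster. An unnamed sub-cluster led by Vpreb3 and Sox4, genes of immature B cells, stood between for Fcer2a, at 166, 129.6 and 119 CPM.

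Fcmr, the IgM receptor gene, was broader. It was highest in the Vpreb3 sub-cluster in every library, at 720.3, 695 and 919.8 CPM, close to the Cr2 follicular-like cells at 674, 687 and 718 CPM, from which it differed beyond the intervals in WD alone. The Zcwpw1 B1-like cells held 338, 434 and 465 CPM, and the S100a4 B1-like cells 115, 205 and 146 CPM, the lower of the pair in each library. Fcgr2b had the opposite order in that pair, with 139.5, 119.8 and 131 CPM in the S100a4 cells and 65.3, 61.5 and 61.2 CPM in the Zcwpw1 cells. A small B1-like sub-cluster led by Ly6c2, of 24, 49 and 28 cells, held 259, 107 and 219 CPM of Fcgr2b.

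**Figure D5:**
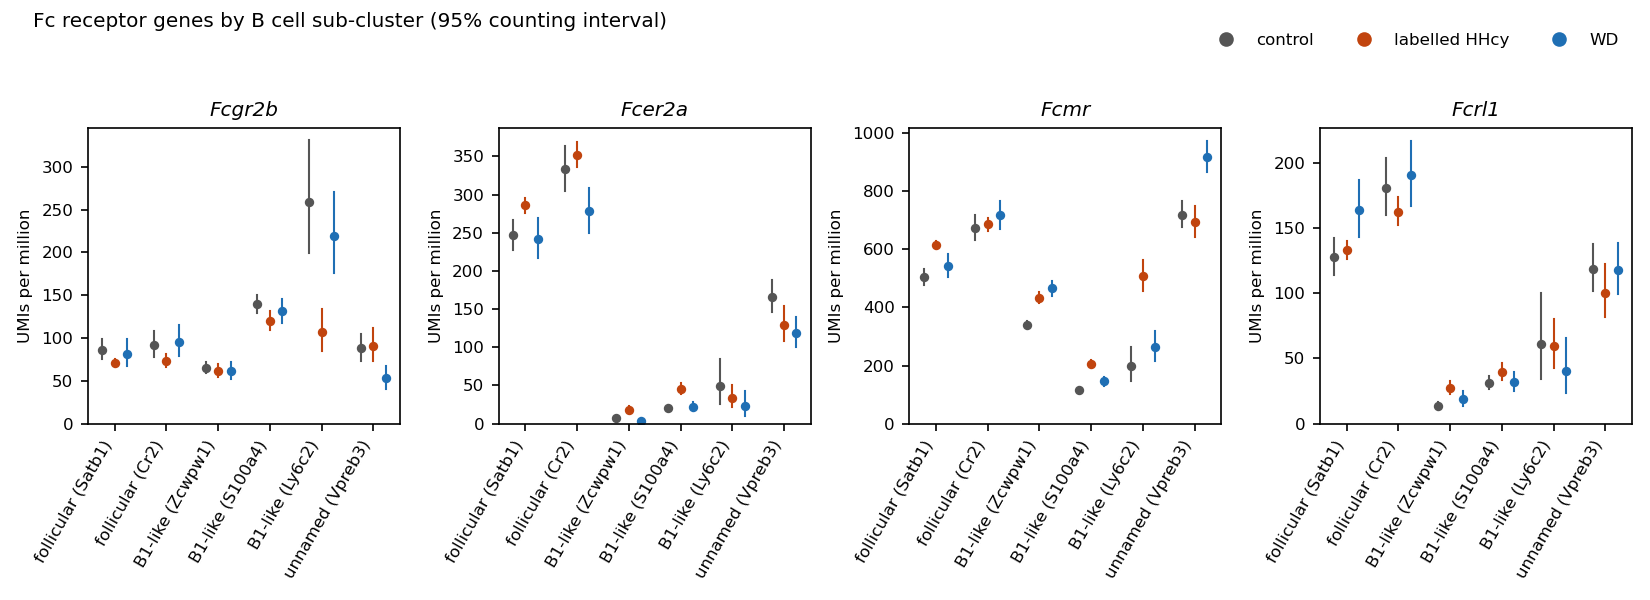
Levels of Fcgr2b, Fcer2a, Fcmr and Fcrl1 in 6 B cell sub-clusters, in CPM of the sub-cluster, 1 point per library with its 95% counting interval. Fcer2a and Fcrl1 are highest in the follicular-like sub-clusters. Fcgr2b is highest in the Ly6c2 B1-like cells in control and WD and in the S100a4 B1-like cells in the library labelled HHcy. The Zcwpw1 B1-like cells hold less Fcgr2b than both follicular-like sub-clusters in every library.

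Over all B cell-like cells, 3 of 7 members were past the fold upward in the library labelled HHcy and 1 downward, against 3.13% of all genes higher and 6.27% lower. Fcer2a was at 88.2, 204 and 96.8 CPM, at 2.31 times (2.19 to 2.44) and 1.1 times (1.01 to 1.19) the control value. Fcrl1 was at 59.2, 105 and 81.3 CPM, or 1.77 and 1.37 times. Fcmr was at 334, 531 and 473 CPM, or 1.59 and 1.42 times. The library labelled HHcy was the highest for all 3 genes. The follicular-like sub-clusters led by Satb1 and Cr2 made up 20.05, 47.9 and 20.9% and 11.9, 22.1 and 17.6% of B cell-like cells, with most in the library labelled HHcy. With the sub-clusters weighted as in the control, the log2 ratios in the library labelled HHcy went from 1.21 to 0.21 for Fcer2a, from 0.83 to 0.16 for Fcrl1 and from 0.67 to 0.34 for Fcmr, and none was past the fold. Thinned to 1000 UMIs a cell, the log2 ratio of Fcmr was 0.54, also below it. In WD the same weighting took Fcer2a from 0.13 to -0.22. An Fcer2a UMI was found in 30.9, 61.7 and 34.2% of B cell-like cells. In T cell-like cells, which should lack it, the share was 0 of 136 cells in the control, which, with 3 cells as the limit for a 0, allows up to 2.21%, and 4.46 and 1.39% in the others.

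The other members called in B cell-like cells were myeloid genes at low levels. In WD, Fcer1g was at 1.96 times (1.73 to 2.22) the control, Fcgr4 at 1.69 and Fcgr3 at 1.68 times, which are 3 members higher and 0 lower of 7 against 1.72% and 1.93% of all genes. In the library labelled HHcy, Fcgr4 was the member called lower, at 0.644 times (0.436 to 0.95). It was no longer called with the sub-clusters weighted as in the control or with thinned cells. Fcer1g was at 25.2, 31.6 and 49.4 CPM, or 1.16, 1.35 and 2.09% of its level in macrophage/monocyte-like cells of the same library. That share was 1.47, 0.94 and 2.43% for Fcgr1, 1.27, 1.3 and 1.76% for Fcgr3 and 1.59, 1.08 and 2.83% for Fcgr4. All 4 myeloid genes had their highest share in WD. The macrophage markers summed to 1381, 1233 and 1495 CPM in B cell-like cells, or 6.1, 4.06 and 5.79% of their own class, with 21 of 21 detected, and their part in these values was not tested. Fcer1g in the Ly6c2 B1-like sub-cluster was higher, at 72.9 (43.2 to 115), 222 (188 to 259) and 164 (126 to 209) CPM, on 18, 157 and 65 UMIs.

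In macrophage/monocyte-like cells, genes that act with the receptors were read against the same background, 2.21% of all genes higher and 2.62% lower in the library labelled HHcy and 2.88% each way in WD. Of the activating signalling genes, such as Syk, Lyn, Btk and Plcg2, 0 of 20 were higher and 0 lower in the library labelled HHcy. In WD 0 of 22 were higher and 1 lower, Card9, an adaptor downstream of Syk, at 0.532 times (0.454 to 0.623). Their median log2 ratios were -0.11 and -0.17, against -0.04 and -0.02 over all genes. Of the 8 inhibitory signalling genes, Inpp5d among them, 0 were called in either comparison. Of 5 other receptors that pair with the gamma chain, Tarm1 was called, at 1.91 times in the library labelled HHcy, and in WD 0 were. Among 4 other immunoglobulin receptors, Fcrla, a B cell gene, was at 1.91 times in the library labelled HHcy, on 45 and 58 UMIs. Fcrls, an Fc receptor-like gene of myeloid cells, was at 130.3, 119.7 and 196 CPM, or 1.51 times (1.44 to 1.58) the control in WD. Among 11 other ITIM receptors, Cd72 was at 1.75 and Ceacam1 at 0.559 times in WD, and 0 were called in the library labelled HHcy.

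Of the ligand and partner genes, mostly antibody genes, 7 of 9 were higher in macrophage/monocyte-like cells of the library labelled HHcy, where 2.21% of all genes were. Ighg2c, a heavy chain gene of IgG, was at 6.34, 46.8 and 5.35 CPM there. Plasma cell-like cells, which make such transcripts, numbered 14, 68 and 14, also with most in the library labelled HHcy, and their part in the antibody transcripts of macrophages was not tested. In B cell-like cells of WD 0 of 19 activating signalling genes were called. Cd72, which holds an ITIM, was at 1.62 times in B cell-like cells of the library labelled HHcy and 1.52 times in WD. Of 9 other ITIM receptors in the library labelled HHcy, Cd72 was the 1 called higher, and 2, Sirpa and Pirb, were lower. In WD 2 of 8, Lair1 and Cd72, were higher and 0 lower. Over all genes 3.13% were higher and 6.27% lower in the former, and 1.72% and 1.93% in WD. Fcgrt, the receptor that recycles IgG, was at 11.9, 18.7 and 15 CPM in B cell-like cells, or 1.58 times in the library labelled HHcy, and at 139, 207 and 179 CPM in macrophage/monocyte-like cells. Of 6 other immunoglobulin receptors in B cell-like cells of the library labelled HHcy, 1, Fcgrt, was higher and 1, Fcrl5, lower. Also lower there were Inppl1, 1 of 8 inhibitory signalling genes, and Pira2, 1 of 3 receptors that pair with the gamma chain. In WD 1 of those 3, Clec4d, was higher.

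Genes whose level was most like that of a member were found by the Pearson correlation of log2(CPM + 10) over 21 points, 7 classes in 3 libraries, which share libraries and depth. Fcgr1 was closest to Ccl9, Clec4a1 and Adap2 (r 0.96 for each), Fcgr3 to Gm21188, Lyz2 and Ccl6 (0.97 to 0.98), and Fcgr4 to Pla2g7, C130050O18Rik and Gm21188 (0.98 to 0.98). Fcgr2b was closest to Ctss, Pld4 and Gm6377 (0.94 to 0.96) and Fcer1g to Lrrc25, Ccl6 and Tnf (0.96 to 0.97). Among the B cell genes, Fcer2a was closest to Ffar1, Gm31243 and Gm4610, Fcmr to Vpreb3, Gm47828 and Ffar1, and Fcrl1 to Ffar1, Eaf2 and Gm4610. With log2(CPM + 1), 0 of the 3 genes were kept for Fcgr4, Fcer2a and Fcmr, 1 for Fcgr1 and Fcgr3, and 2 for Fcgr2b, Fcer1g and Fcrl1.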

How the data were processed

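Single-cell RNA-seq of live CD45+ aortic cells was read as 3 count matrices, 1 per library, holding raw UMI counts per gene and barcode as the authors deposited them. The file headers name Cell Ranger 4.0.0, while the submitters' processing notes name Cell Ranger 2.2.0 and the build mm10, so the version is not settled. Counts are of called cells, and intervals cover counting error only, with depths of 66789257 to 105180370 UMIs a library.

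Barcodes with at least 200 genes and at most 10% mitochondrial UMIs were kept. Barcodes with marker genes of 2 or more lineages were removed as doublets. Cells of all libraries were clustered together (Leiden, resolution 1, on 30 components of 2000 variable genes, 20 neighbours; sub-clusters at 0.5) without the 9 genes and the other immunoglobulin receptors. Clusters were named from marker lists; the limits used in naming and in the doublet rule were set after the data were examined. CPM carry exact Poisson intervals, ratios exact conditional binomial ones and shares Clopper-Pearson ones. The formula of the ratio and the 1.5-fold call were tried on simulated counts in a separate calculation, which did not cover the intervals. Python 3.11.15, scipy 1.17.1, igraph 0.11.9 and leidenalg 0.10.2 were used.

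The members and gene lists were chosen with earlier results of these data known. By rule, all 9 members are named in classes with at least 20 cells in each library, and of other lists the genes at least 1.5-fold apart with an interval excluding 1, at most 3 per direction, class and comparison. For the other lists this is an upper limit, and not every gene that meets it is named. Mast cell-like and NK cell-like cells fall below that size in a library and were added after their values were seen, as were the fold counts in dendritic cell-like cells. Promoters are from RefSeq (GRCm38.p6), where all 9 genes matched. Protein sequences were not used here. The activating signalling genes in B cell-like cells of the library labelled HHcy are not reported here.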

Additional observations from a re-analysis of the deposited data

Results flagged for a closer look

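In the library labelled HHcy, Fcgr3 had a log2 ratio to the control of 0.66 in neutrophil-like cells and -0.48 in conventional dendritic cell-like cells, so the classes lay on opposite sides of the control. With doublets kept, the dendritic value was 0.21. Fcgr4 had a log2 ratio of 1.06 in neutrophil-like cells of that library, against -0.75 in dendritic cell-like and -0.63 in B cell-like cells. In WD, Fcgr4 was at 0.86 in dendritic cell-like cells and at 0.76 in B cell-like cells, against -0.074 in macrophage/monocyte-like cells. With 1 library per group, none of these differences between classes was tested.

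Fcer1a was found with 5 or more UMIs in cells outside the mast cell-like class, where no comparison used it: 1 ILC2-like cell of WD, 1 macrophage/monocyte-like cell of the library labelled HHcy and 1 of WD.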

How the results depend on the processing

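Counts of members past 1.5-fold were recomputed for macrophage/monocyte-like, B cell-like and neutrophil-like cells. Main counts in the library labelled HHcy and then WD were 0 and 1 higher, 0 and 1 lower in macrophages, 3 and 3 higher, 1 and 0 lower in B cells, and 2 and 0 higher, 1 and 0 lower in neutrophils. With at most 20% mitochondrial UMIs, and likewise with at least 500 detected genes, macrophages gave 1 higher in the library labelled HHcy and 0 lower in WD. With doublets kept they gave 2 higher in each and 0 lower in WD, and neutrophils 1 higher in WD. Thinned to 1000 UMIs, which leaves fewer genes with 100 UMIs, macrophages gave 0 higher and 0 lower in WD, B cells 0 lower in the library labelled HHcy and 1 higher in WD, and neutrophils 0 higher and 0 lower in the library labelled HHcy. Median-ratio scaling gave neutrophils 0 lower in that library and 1 lower in WD. Weighting sub-clusters as in the control gave 0 higher in WD macrophages, and in the library labelled HHcy 0 higher and 0 lower in B cells and 1 higher and 0 lower in neutrophils. Counting all genes with at least 20 UMIs gave macrophages 1 higher in the library labelled HHcy, 2 higher and 2 lower in WD, and neutrophils 4 higher in the library labelled HHcy. With at least 1 UMI in each library, macrophages gave 2 higher in the library labelled HHcy, 2 higher and 2 lower in WD, B cells 2 lower in the library labelled HHcy, and neutrophils 4 higher there and 1 lower in WD. Except where the text above names fewer genes or other weights, the cause was not tested.

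All 12 counts stayed the same at Leiden resolution 2 and without cells of 10 or more Apoe UMIs, an alternative chosen after seeing the data. Of 34 log2 ratios, 34 stayed within their counting interval at Leiden resolution 2, 23 with doublets kept, 18 when thinned and 12 with sub-clusters weighted as in the control. None of the called ratios among these 34 changed sign. Other called ratios were not among them, such as Fcgr4 in dendritic cell-like and B cell-like cells and Fcmr in macrophage/monocyte-like cells. Of the sub-cluster CPM, 41 moved and 49 stayed the same at a sub-cluster resolution of 1, so the levels above hold for the sub-clusters at 0.5. No paired analysis was possible because each group has 1 library. The number of cells limits mast, NK and T cell-like classes, and 1 library per group limits every comparison.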
